A study of Homo sapiens with 6 samples.

Results

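The RNA of EJ, a long-established line of human bladder cancer cells, was sequenced and read for the genes that build and cut the extracellular matrix, namely the collagen chains, the laminin chains and the matrix metalloproteinases (MMPs). Members were taken by gene symbol alone, as COL with a number and A, as LAMA, LAMB or LAMC with a number, or as MMP with a number. The symbols gave 64 of the 15953 genes listed. Of these, 2 are not members: MMP24OS, a transcript opposite to MMP24 (log2 fold change 0.08, limma adjusted p = 0.16), and MMP24-AS1-EDEM2, a read-through transcript (0.67, limma adjusted p = 0.239). The 62 members are 35 collagen chains, 11 laminin chains and 16 MMPs. COL1A2, MMP2, MMP8, MMP12, MMP20 and MMP27 have no values in the tables used here.

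There were 2 groups of 3 libraries. The shSTIL group is EJ cells with a stable knockdown of STIL by a lentivirus, and the shNC group is EJ cells with the negative control lentivirus, so both groups carry a lentiviral vector. STIL is a centriole assembly protein. The sources used here list siRNAs against STIL, but state neither which sequence the hairpin carries, nor whether each line is a single clone, nor whether the libraries of a group come from separate cultures, so the p-values measure the spread between these libraries, which may be technical. The deposited column headings name the groups siNC and siSTIL, whereas the sample labels name them shNC and shSTIL, and the labels were followed.

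STIL itself had log2 CPM values (log2 of counts per 1000000 reads, or CPM) of 5.98, 6.10 and 6.01 in shNC libraries and 4.05, 4.06 and 4.01 in shSTIL libraries, which left 25.2% of the control level (limma adjusted p = 6.1e-12). The libraries held 16214772 to 16901634 reads each. KRT8 (mean log2 CPM 8.56 in shNC libraries), KRT18 (9.32), KRT7 (6.50) and VIM (10.52) were abundant, while the epithelial markers CDH1 (-2.06) and KRT5 (-3.05) and the urothelial marker UPK2 (-1.90) were at or near 0 reads. The 6 epithelial markers listed summed to 1071.8 to 1130.1 CPM in shNC libraries and 967.0 to 998.8 in shSTIL libraries, and the 6 mesenchymal markers to 1574.2 to 1615.0 and 990.2 to 1007.9. The 5 luminal urothelial markers listed summed to 22 to 23.9 and 24.5 to 26.3. A few genes make up most of each sum, KRT18 and KRT8 in the epithelial list and VIM in the mesenchymal list. In the luminal list PPARG had 302 to 405 reads in each library, against 19 to 33 for UPK1A, the next highest. PPARG alone in that list had a positive log2 fold change, and the list median was -0.41. Some members of these lists moved against their sums. In the epithelial list KRT8 fell by 0.70 on the log2 scale (limma adjusted p = 1.1e-09) and KRT7 rose by 0.49 (2e-06), in the mesenchymal list VIM (-0.68, 8.1e-10) and FN1 (-1.19, 8.8e-10) fell and ZEB2 rose by 0.74 (1.5e-06), and in the luminal list PPARG rose by 0.26 (0.0046) and UPK1B fell by 1.12 (0.0035). The other members did not pass the test, UPK1A at -0.59 (0.0186) among them. The UPK1B call was lost in all 6 fits without a library, without the mean-variance trend, with DESeq2 and with the replicate block, and the PPARG call without the trend, with DESeq2 and in 5 of those 6 fits (all but shNC replicate 3), with an adjusted p of up to 0.058 and 0.034. Fibroblast markers (2 of 5 listed) and endothelial markers (3 of 3 listed) summed to less than 1 CPM in each library, and of the 3 leukocyte markers CD68 alone was listed, at 10.9 to 14.6 CPM. The part of these shifts in the results was not tested.

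Basement membranes are thin sheets under epithelia. They are built on a network of type IV collagen and on laminins, each of which joins an alpha, a beta and a gamma chain. The genes of the type IV chains lie in head-to-head pairs, which share the stretch of DNA between their start sites. MMPs are zinc-dependent proteases that cleave collagens, laminins and other proteins outside the cell, and they are studied in bladder cancer because a tumour has to pass the basement membrane to reach muscle. Bulk RNA does not tell fewer cells of a kind from less RNA per cell.

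With an adjusted p under 0.01 in limma, 27 of the 62 members (43.5%) were differentially expressed genes (DEGs), against 47.1% of all genes. There were 18 members higher in shSTIL libraries (23.5% of all genes were) and 9 lower (23.6% of all genes were). With 1 library left out, 12 to 16 members were higher. The lower members were 5 without shNC replicate 1, 6 without shNC replicate 2, 4 without shNC replicate 3, 5 without shSTIL replicate 1, and 3 without shSTIL replicate 2 or 3. The shNC and shSTIL values did not overlap for 31 of the 62 members, against 60.3% of all genes. The median log2 fold change (shSTIL over shNC) was 0.06 for the members and 0.01 for all genes. As a list, then, the members were called no more often than other genes, and what follows is about which of them moved. Expression was uneven: 29 members averaged a log2 CPM of 1 or more, and 21 members had fewer than 5 reads in every library. Of those 29 members, 22 were DEGs, against 61.9% of all genes with that mean, a count that describes the better measured members alone. By family, 15 of 35 collagen chains were DEGs (10 higher, 5 lower), 7 of 11 laminin chains (6 higher, 1 lower) and 5 of 16 MMPs (2 higher, 3 lower).

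**Figure D1:**
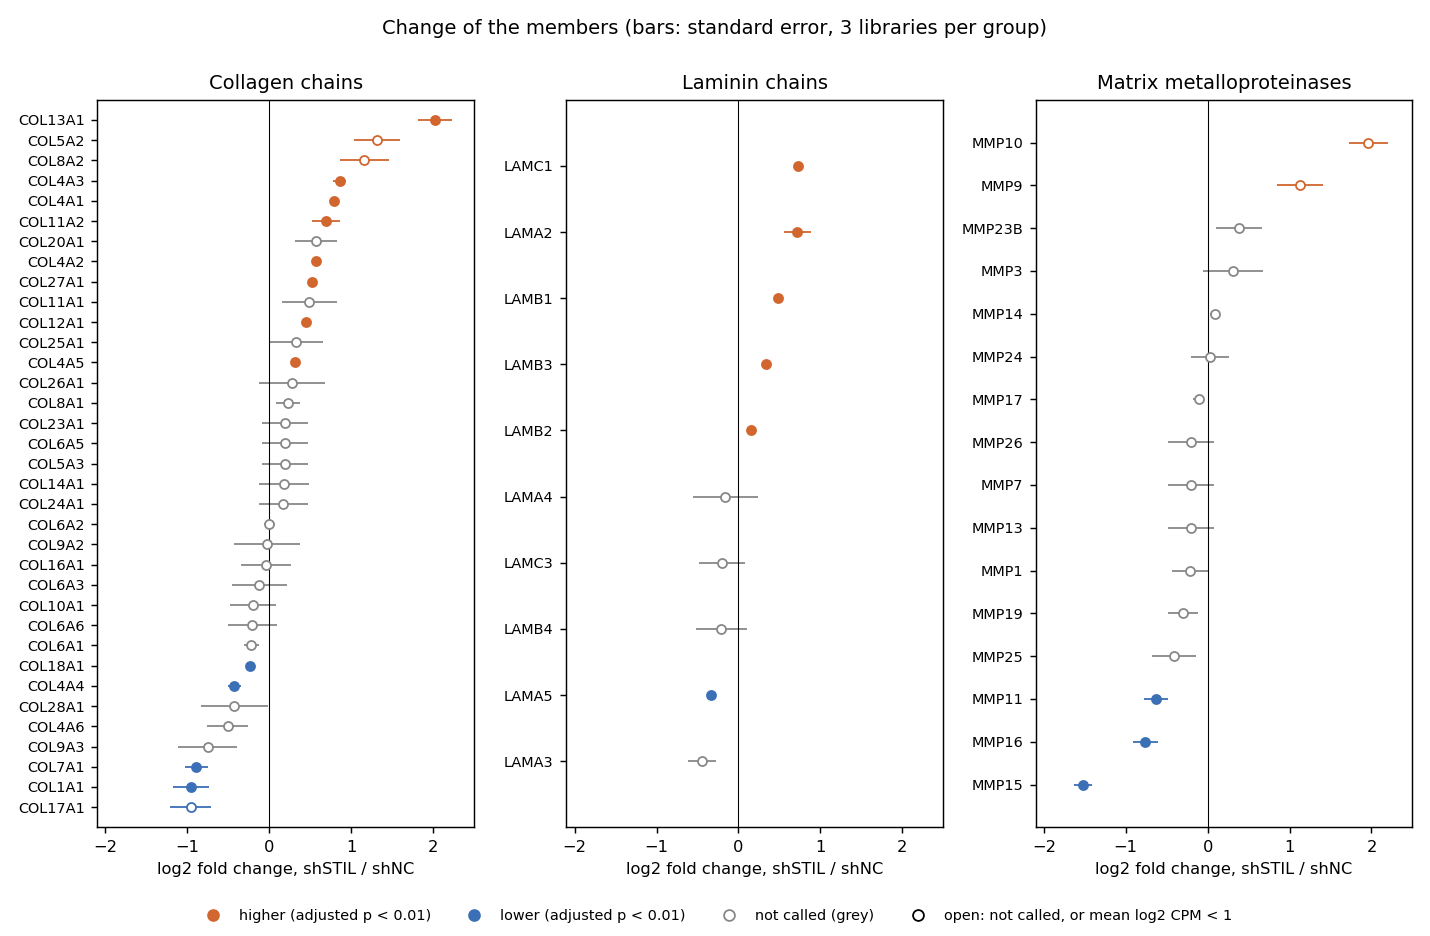
Change of the members, in 3 panels for collagen chains, laminin chains and MMPs. The x axis is the log2 fold change of shSTIL over shNC libraries from limma, bars are standard errors (3 libraries per group), orange and blue mark DEGs that were higher and lower, and grey marks members that did not pass the test. The changes run from -1.52 for MMP15 to 2.02 for COL13A1, and the laminin panel has 5 orange points and 1 blue point.

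Summed over a family, collagen reads were 2018.1 ± 58.0 CPM in shNC libraries and 2252.5 ± 12.2 in shSTIL libraries (SD, n = 3), laminin reads 2127.4 ± 50.6 and 2590.3 ± 66.0, and MMP reads 89.9 ± 6.87 and 74.7 ± 1.49. Each of these sums was without overlap between the groups (p = 0.1 in an exact two-sided permutation test, the smallest that the 20 labellings of 6 libraries can give). A few genes make up most of each sum. COL18A1 held 57.0% of the collagen reads in shNC libraries and 43.5% in shSTIL libraries, and MMP17 held 35.9% and 39.9% of the MMP reads. COL18A1 and MMP17 are outside the rule by which members are named and were picked after their values were seen.

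Of the 6 type IV collagen chains, 5 were DEGs (4 higher, 1 lower), against 47.1% of all genes. Summed over the 6 chains, their reads were 707.8 ± 8.51 CPM in shNC libraries and 1076.9 ± 15.8 in shSTIL libraries (SD, n = 3), a ratio of 1.52. Most of these reads came from COL4A1 and COL4A2. COL4A1, COL4A2, COL4A3 and COL4A5 rose, COL4A4 fell, and COL4A6 was close to 0 reads.

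COL4A1 (chr13:110148963-110307233, minus strand) and COL4A2 (chr13:110305812-110513209, plus strand) encode the chains of the most widespread type IV network. COL4A1 had log2 CPM values of 7.64, 7.62 and 7.58 in shNC libraries and 8.47, 8.36 and 8.38 in shSTIL libraries. Every shSTIL library lay above every shNC library, on 3046 to 3205 reads against 5638 to 6044. Its log2 fold change was 0.79 (standard error, SE, 0.03), or 1.73-fold (limma adjusted p = 6e-10). COL4A2 had 8.79, 8.78 and 8.76 against 9.34, 9.34 and 9.36, again with no overlap and with replicates of a group within a few hundredths of each other. Its log2 fold change was 0.57 (SE 0.03), or 1.48-fold (limma adjusted p = 1.8e-09). Per kilobase of transcript, COL4A2 was the more abundant of the pair, at 67.5 RPKM (CPM divided by transcript length in kilobases) in shNC libraries and 100.3 in shSTIL libraries, against 29.6 and 51.1 for COL4A1. The difference of COL4A1 minus COL4A2 within a library went from -1.16 ± 0.02 to -0.95 ± 0.06 log2 units (SD, n = 3), with no overlap (exact permutation test, p = 0.1). The 2 gene models overlap at their starts on opposite strands, and since strand-specific counting is not stated, reads from that overlap cannot be told apart.

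The stretch between the RefSeq start sites of this pair is printed because both genes are read outward from it and both rose. On GRCh38.p14 the start sites lie 127 bases apart, COL4A1 reading to the left from the first base and COL4A2 to the right from the last base of chr13:110307157-110307284 (plus strand). Capitals mark CCAAT, the letters of the CCAAT box, searched on both strands.
COL4A1-COL4A2 between the start sites: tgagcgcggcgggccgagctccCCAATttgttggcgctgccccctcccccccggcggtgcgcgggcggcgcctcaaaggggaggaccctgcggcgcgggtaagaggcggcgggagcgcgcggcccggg
The match begins 26 bases before the COL4A1 start and 105 bases before the COL4A2 start. CCAAT was found in 34.6% of all 34943 RefSeq promoter windows (250 bases before to 50 after a start site) and in 19 of the 54 member windows (35.2%).

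COL4A3 (chr2:227164565-227314792, plus strand) and COL4A4 (chr2:227002711-227164453, minus strand) form the second pair, whose chains are known from the filter membrane of the kidney glomerulus. This pair moved apart. COL4A3 had log2 CPM values of 3.41, 3.41 and 3.32 in shNC libraries and 4.26, 4.26 and 4.22 in shSTIL libraries. It rested on 157 to 171 reads against 314 to 327, with no overlap. The log2 fold change was 0.86 (SE 0.08), or 1.82-fold (limma adjusted p = 4.1e-07). COL4A4 had 4.21, 4.22 and 4.25 against 3.91, 3.78 and 3.68, on 295 to 301 reads against 215 to 256. All 3 shSTIL libraries lay below the shNC libraries, and the shSTIL values were the more spread. The log2 fold change was -0.43 (SE 0.08), or 0.74-fold (limma adjusted p = 0.00034). That call was lost without shNC replicate 1, 2 or 3 and without shSTIL replicate 2, where the adjusted p reached 0.013, while the log2 fold change stayed between -0.495 and -0.376. Within a library, COL4A3 minus COL4A4 was -0.80, -0.81 and -0.93 in shNC libraries and 0.34, 0.47 and 0.54 in shSTIL libraries. COL4A4 thus had the more reads in each shNC library and COL4A3 in each shSTIL library, a shift of 1.30 log2 units (exact permutation test, p = 0.1). Per kilobase of transcript the order turned as well, from 1.27 for COL4A3 and 1.86 for COL4A4 in shNC libraries to 2.33 and 1.37 in shSTIL libraries.

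The RefSeq start sites of COL4A3 and COL4A4 lie 419 bases apart on chromosome 2. The 200 bases around each start (150 before it and 50 from it) are printed, since one gene of the pair rose and the other fell. COL4A3 is chr2:227164474-227164673 on the plus strand and COL4A4 is chr2:227164156-227164355 on the minus strand of GRCh38.p14. Neither holds the letters of the AP-1 site, the TATA box or the CCAAT box (spelled out beside the windows of other members) on either strand, so no letters are in capitals.
COL4A3: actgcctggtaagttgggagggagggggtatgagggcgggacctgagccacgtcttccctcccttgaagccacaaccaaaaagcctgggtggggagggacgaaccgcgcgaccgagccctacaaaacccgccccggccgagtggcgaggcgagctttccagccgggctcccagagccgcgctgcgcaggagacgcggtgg
COL4A4: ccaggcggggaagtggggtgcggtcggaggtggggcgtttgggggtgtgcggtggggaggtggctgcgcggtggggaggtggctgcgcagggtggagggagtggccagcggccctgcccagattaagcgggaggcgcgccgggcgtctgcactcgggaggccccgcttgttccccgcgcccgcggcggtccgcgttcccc

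COL4A5 (chrX:108439844-108697545, plus strand) and COL4A6 (chrX:108155607-108439497, minus strand) are the pair on the X chromosome. COL4A5, the chain most often affected in Alport syndrome, had log2 CPM values of 5.44, 5.49 and 5.47 in shNC libraries and 5.82, 5.74 and 5.77 in shSTIL libraries. The groups did not overlap, and the log2 fold change was 0.31 (SE 0.04, limma adjusted p = 3.6e-05), or 1.24-fold. COL4A6 had 8, 6 and 6 reads in shNC libraries and 4, 4 and 5 in shSTIL libraries. The groups did not overlap, but the log2 fold change of -0.51 (95% confidence interval -1.04 to 0.02) did not pass the test (limma adjusted p = 0.0949). Their RefSeq start sites lie 380 bases apart, and a second start site of COL4A6 lies 1416 bases from that of COL4A5.

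**Figure D2:**
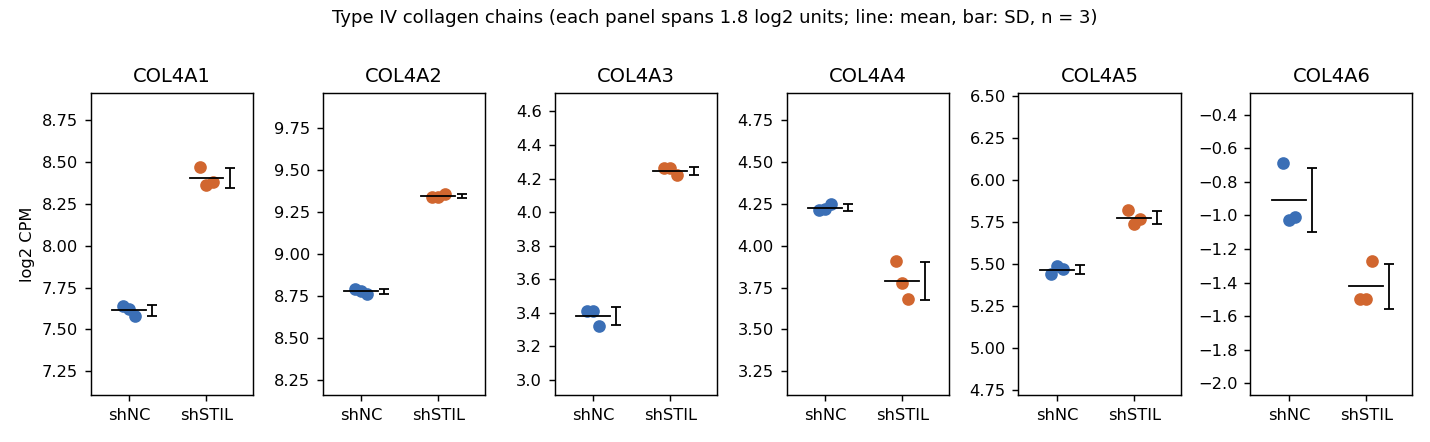
Log2 CPM of the 6 type IV collagen chains in each library, shNC in blue and shSTIL in orange, with the mean as a line and the SD as a bar beside the points (n = 3). Each panel spans the same number of log2 units around its own level, and the shSTIL points lie above the shNC points for COL4A1, COL4A2, COL4A3 and COL4A5 and below them for COL4A4 and COL4A6.

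Among the other collagen chains, COL13A1 changed most. COL13A1 is a collagen that spans the cell membrane, and it had 31, 18 and 18 reads in shNC libraries and 112, 103 and 86 in shSTIL libraries. Its log2 CPM values were 1.04, 0.29 and 0.32 against 2.74, 2.61 and 2.37, with no overlap. Its log2 fold change was 2.02 (SE 0.21), or 4.06-fold (limma adjusted p = 2.6e-06), and the call was kept in each of the 14 alternative fits. COL27A1, a fibrillar collagen of cartilage, had log2 CPM values of 5.54, 5.49 and 5.44 against 6.02, 5.98 and 6.02. It rose by 0.52 (SE 0.04, limma adjusted p = 2.2e-07) on 690 to 1112 reads. COL11A2, another fibrillar chain, had 36, 34 and 39 reads against 64, 54 and 74, a log2 change of 0.69 (SE 0.17, limma adjusted p = 0.00391). The COL11A2 call was lost with DESeq2 and without shNC replicate 1, 2 or 3 or shSTIL replicate 1 or 3, with an adjusted p of up to 0.035.

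COL7A1, COL17A1 and COL1A1 fell. COL7A1, which forms the anchoring fibrils under the basement membrane, had log2 CPM values of 2.72, 2.53 and 2.56 in shNC libraries and 1.63, 1.65 and 1.87 in shSTIL libraries. The groups did not overlap, on 92 to 104 reads against 51 to 60, and the log2 fold change was -0.89 (SE 0.14, limma adjusted p = 0.00012), or 0.541-fold. COL17A1, the transmembrane collagen of hemidesmosomes, had 12, 19 and 15 reads against 9, 7 and 6. Its log2 fold change was -0.96 (SE 0.25, limma adjusted p = 0.0045), but edgeR, DESeq2, the replicate block and 5 of the 6 fits without a library (all but shNC replicate 1) lost the call, with an adjusted p of up to 0.059. COL1A1, a chain of the main fibrillar collagen of connective tissue, had 59, 38 and 52 reads against 32, 21 and 25. The groups did not overlap, and the log2 fold change was -0.96 (SE 0.22, limma adjusted p = 0.00196), a call lost without the mean-variance trend and in 5 of the 6 fits without a library (all but shNC replicate 2), with an adjusted p of up to 0.05.

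The remaining collagens are named outside the rule, after their values were seen. COL18A1, a basement membrane collagen whose end fragment is endostatin, was the most abundant collagen per kilobase of transcript, at 174.8 ± 7.33 RPKM in shNC libraries and 148.8 ± 1.31 in shSTIL libraries (SD, n = 3). It fell by 0.23 on the log2 scale (limma adjusted p = 8e-05), opposite to COL4A1 and COL4A2. Quantile normalization left a log2 fold change of -0.091 for COL18A1, with an adjusted p of 0.055, and the call was also lost without shSTIL replicate 1 or 3. COL12A1, which coats collagen fibrils, rose by 0.45 (limma adjusted p = 2.6e-06). COL5A2, a chain that joins type I fibrils, had 11, 7 and 5 reads against 19, 30 and 20 (limma adjusted p = 0.00107), and COL8A2 had 2, 0 and 1 reads against 5, 5 and 4 (limma adjusted p = 0.00469), so that the size of its change depends on the prior count. Both calls were lost without the mean-variance trend and in 5 of the 6 fits without a library (all but shNC replicate 1), and that of COL8A2 also with edgeR, DESeq2 and a prior count of 0.5, with an adjusted p of up to 0.033 for COL5A2 and 0.12 for COL8A2. COL6A1 (-0.22, limma adjusted p = 0.0553) and COL8A1 (0.23, limma adjusted p = 0.205) were expressed and did not pass the test, and neither did COL6A2 (mean log2 CPM 4.91 in both groups, limma adjusted p = 0.995). The other collagen chains that did not pass had at most 11 reads in any library.

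Summed by class, the laminin beta and gamma chains were higher and the alpha chains lower in shSTIL libraries. The alpha chains summed to 685.8 ± 44.9 CPM in shNC libraries and 543.6 ± 21.2 in shSTIL libraries, the beta chains to 1013.2 ± 15.2 and 1333.2 ± 23.5, and the gamma chains to 428.4 ± 7.24 and 713.5 ± 22.7 (SD, n = 3). For each class the groups did not overlap (exact permutation test, p = 0.1). The alpha sum is nearly all LAMA5 and the gamma sum nearly all LAMC1.

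LAMA5 (chr20:62307955-62367312), LAMB1 (chr7:107923799-108003255) and LAMC1 (chr1:183023460-183145592) encode the chains of the laminin that is widespread in epithelial basement membranes. LAMC1 had log2 CPM values of 8.71, 8.75 and 8.74 in shNC libraries and 9.49, 9.40 and 9.48 in shSTIL libraries, and it rose by 0.73 (SE 0.03, limma adjusted p = 7.1e-10), or 1.66-fold. LAMB1 had 9.07, 9.09 and 9.05 against 9.59, 9.52 and 9.55, and it rose by 0.48 (SE 0.03, limma adjusted p = 1.9e-08). LAMA5 had 9.51, 9.36 and 9.34 against 9.12, 9.01 and 9.06, and it fell by 0.34 (SE 0.05, limma adjusted p = 2.3e-05). None of these chains overlapped between the groups. The LAMA5 call was lost without shSTIL replicate 2 or 3, where the adjusted p was up to 0.017. Within a library LAMA5 minus LAMC1 went from 0.67 ± 0.11 to -0.39 ± 0.03 (SD, n = 3), so reads of LAMA5 exceeded those of LAMC1 in each shNC library and not in the shSTIL libraries (exact permutation test, p = 0.1). Per kilobase of transcript, LAMA5 went from 59.4 ± 3.92 to 46.8 ± 1.89 RPKM, LAMB1 from 93.1 ± 1.33 to 130.2 ± 2.98 and LAMC1 from 53.9 ± 0.868 to 89.2 ± 2.89.

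LAMA3 (chr18:23689443-23956222) and LAMB3 (chr1:209614870-209652466) encode chains of the laminin that anchors epithelial cells through hemidesmosomes. LAMB3 had log2 CPM values of 8.48, 8.47 and 8.44 in shNC libraries and 8.81, 8.78 and 8.81 in shSTIL libraries, with no overlap, and it rose by 0.34 (SE 0.03, limma adjusted p = 3.4e-07). LAMA3 had 2.04, 2.20 and 1.91 against 1.86, 1.45 and 1.5, with no overlap. Its log2 fold change of -0.45 (95% confidence interval -0.81 to -0.08) did not pass the test (limma adjusted p = 0.0363). The levels of these partner chains were far apart in both groups. Per kilobase of transcript, LAMB3 stood at 82.1 and 103.6 RPKM in shNC and shSTIL libraries, and LAMA3 at 0.379 and 0.276.

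The promoter windows of LAMA3 and LAMB3 are printed because both hold the AP-1 letters TGANTCA while their levels are far apart. RefSeq gives LAMB3 several start sites, and the window shown is the one that holds the letters, chr1:209651325-209651524 on the minus strand. LAMA3 is chr18:23872870-23873069 on the plus strand, around a start site that lies inside the gene model given above and not at its start. Capitals mark TGANTCA and, in LAMB3, a CCAAT box on the other strand, read as ATTGG.
LAMB3: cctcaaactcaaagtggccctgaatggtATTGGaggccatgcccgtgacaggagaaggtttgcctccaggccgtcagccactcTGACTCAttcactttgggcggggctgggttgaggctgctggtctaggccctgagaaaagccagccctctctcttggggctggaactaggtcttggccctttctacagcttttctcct
LAMA3: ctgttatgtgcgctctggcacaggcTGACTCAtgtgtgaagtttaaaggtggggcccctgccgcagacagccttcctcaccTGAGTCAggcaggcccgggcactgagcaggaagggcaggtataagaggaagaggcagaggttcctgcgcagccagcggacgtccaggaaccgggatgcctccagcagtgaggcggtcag
Counted from the start site, TGANTCA begins at -67 in LAMB3 and at -125 and -69 in LAMA3. These letters were found in 7.72% of all promoter windows and in 5 of the 54 member windows (9.26%). A match of letters is a description and not a measured site.

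LAMA2, the alpha chain best known from muscle and nerve, had 50, 58 and 46 reads in shNC libraries and 76, 107 and 92 in shSTIL libraries. It rose by 0.72 (SE 0.16, limma adjusted p = 0.00179) with no overlap, but the call was lost without shNC replicate 1, 2 or 3 or shSTIL replicate 2 or 3, with an adjusted p of up to 0.038. LAMB2, named after its values were seen, rose by 0.15 (limma adjusted p = 0.00292), a call lost without the trend and in 5 of the 6 fits without a library (all but shNC replicate 1), with an adjusted p of up to 0.039. LAMA4, LAMB4 and LAMC3 had 3 reads or fewer in each library.

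**Figure D3:**
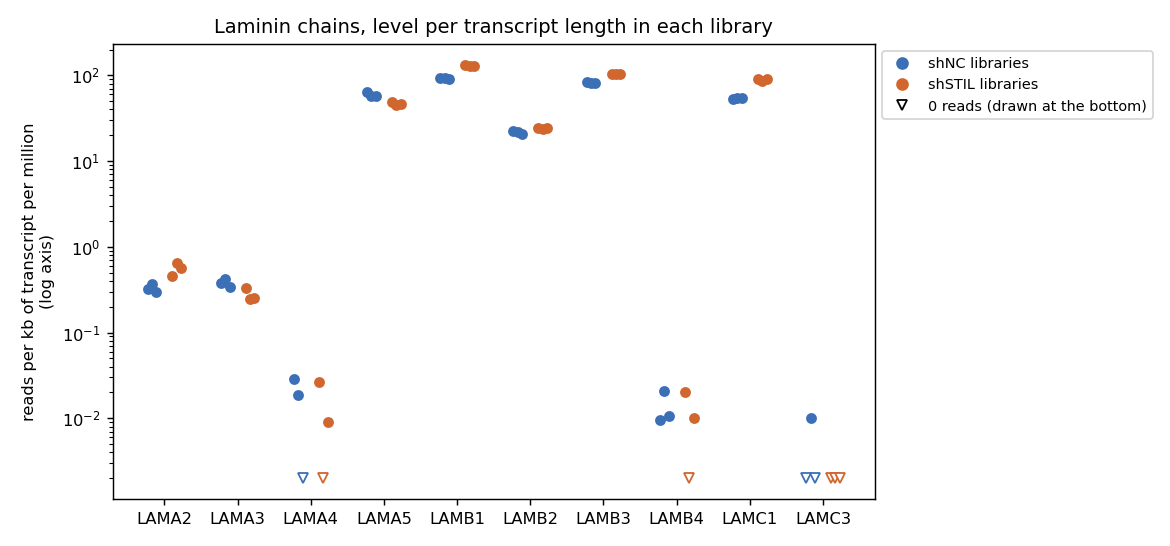
Level of laminin chains in each library in RPKM on a log axis, shNC in blue and shSTIL in orange, with open triangles at the bottom for libraries with 0 reads. LAMB1, LAMB3, LAMC1 and LAMA5 stand far above LAMA2 and LAMA3, and the shSTIL points of LAMC1 lie above its shNC points.

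By reads, the MMPs expressed in these cells were mainly those anchored in the cell membrane, and it was there that the largest fall lay. MMP15 (chr16:58025566-58046901), a membrane-type MMP, had log2 CPM values of 4.06, 3.79 and 3.94 in shNC libraries and 2.36, 2.48 and 2.37 in shSTIL libraries. Reads went from 266, 223 and 243 to 86, 94 and 86, so the groups were wide apart. The log2 fold change was -1.52 (SE 0.11, 95% confidence interval -1.75 to -1.30), or 0.348-fold (limma adjusted p = 4.3e-08), and each of the 14 alternative fits kept the call. Its share of the MMP reads went from 16.9% to 6.94%. MMP16, a membrane-type MMP on chromosome 8, had 154, 125 and 148 reads against 108, 79 and 80. It fell by 0.76 (SE 0.15, limma adjusted p = 0.00051), a call lost without shNC replicate 1, 2 or 3 or shSTIL replicate 2 or 3, with an adjusted p of up to 0.036.

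MMP14, the membrane-type MMP that activates the MMP2 precursor, did not pass the test. MMP14 had log2 CPM values of 4.46, 4.35 and 4.34 against 4.45, 4.47 and 4.50, and the groups overlapped. Its log2 fold change was 0.09 (95% confidence interval -0.05 to 0.22, limma adjusted p = 0.268). MMP17, an MMP held by a lipid anchor and named after its values were seen, had 481 to 566 reads in each library and a log2 change of -0.11 (95% confidence interval -0.26 to 0.03, limma adjusted p = 0.174). Among the secreted MMPs, MMP11 had 72, 62 and 70 reads against 43, 50 and 45. MMP11 fell by 0.63 (SE 0.15, limma adjusted p = 0.00328), a call lost with DESeq2 and in 5 of the 6 fits without a library (all but shNC replicate 2), with an adjusted p of up to 0.019.

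MMP10 lies in the cluster of MMP genes on chromosome 11 (chr11:102770503-102780628, minus strand) and encodes a stromelysin, which cuts many matrix proteins. It had 11, 6 and 10 reads in shNC libraries and 49, 40 and 38 in shSTIL libraries, or log2 CPM values of -0.31, -1.03 and -0.42 against 1.58, 1.29 and 1.24. All shSTIL libraries lay above all shNC libraries. The log2 fold change was 1.96 (SE 0.24, 95% confidence interval 1.44 to 2.47), or 3.88-fold (limma adjusted p = 1.1e-05), and each of the 13 alternative fits that tested MMP10 kept the call. Its neighbours in the cluster did not pass the test. MMP1, the interstitial collagenase, had 27, 24 and 37 reads against 22, 25 and 32, a log2 change of -0.22 (95% confidence interval -0.71 to 0.27, limma adjusted p = 0.443). MMP3, the closest relative of MMP10, had 0, 4 and 2 reads against 2, 3 and 3 (limma adjusted p = 0.512). MMP7 and MMP13 had 1 read in all 6 libraries together, each. Within a library MMP10 minus MMP1 went from -1.52 ± 0.31 to 0.65 ± 0.43 (SD, n = 3), so MMP1 had more reads in the shNC libraries and MMP10 in the shSTIL libraries (exact permutation test, p = 0.1). In RPKM, MMP10 went from 0.319 to 1.41 and MMP1 from 0.927 to 0.782.

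MMP9, a gelatinase that cuts type IV collagen, also passed the test at few reads. MMP9 had 9, 4 and 5 reads in shNC libraries and 18, 18 and 12 in shSTIL libraries, a log2 change of 1.13 (SE 0.28, limma adjusted p = 0.0037). The groups did not overlap, but the call was lost without the mean-variance trend, with DESeq2 and in 5 of the 6 fits without a library (all but shNC replicate 1), with an adjusted p of up to 0.06. The MMPs not yet named did not pass the test: MMP19 had 38 to 60 reads, MMP25 13 to 32, MMP24 between 7.3 and 9.3 estimated reads, and MMP23B and MMP26 at most 1.

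The promoter windows of MMP10 and MMP7 are printed because they hold the same letters at nearly the same place, while MMP10 rose and MMP7 had almost no reads. MMP10 is chr11:102780579-102780778 and MMP7 is chr11:102530698-102530897, both on the minus strand of GRCh38.p14. Capitals mark TGANTCA and TATAAA.
MMP10: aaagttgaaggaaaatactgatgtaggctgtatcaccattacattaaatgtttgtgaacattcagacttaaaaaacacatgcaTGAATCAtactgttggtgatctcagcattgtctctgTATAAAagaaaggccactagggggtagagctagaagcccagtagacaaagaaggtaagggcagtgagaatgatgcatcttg
MMP7: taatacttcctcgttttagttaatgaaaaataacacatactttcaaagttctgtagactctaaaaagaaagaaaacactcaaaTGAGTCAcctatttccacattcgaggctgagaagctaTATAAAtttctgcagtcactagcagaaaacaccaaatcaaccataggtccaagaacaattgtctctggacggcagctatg
TGANTCA begins at -67 in both windows, and TATAAA at -31 in MMP10 and at -30 in MMP7. TATAAA was found in 11.6% of all promoter windows and in 11 of the 54 member windows (20.4%). Promoter windows were found in RefSeq for 44 of the 62 members.

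**Figure D4:**
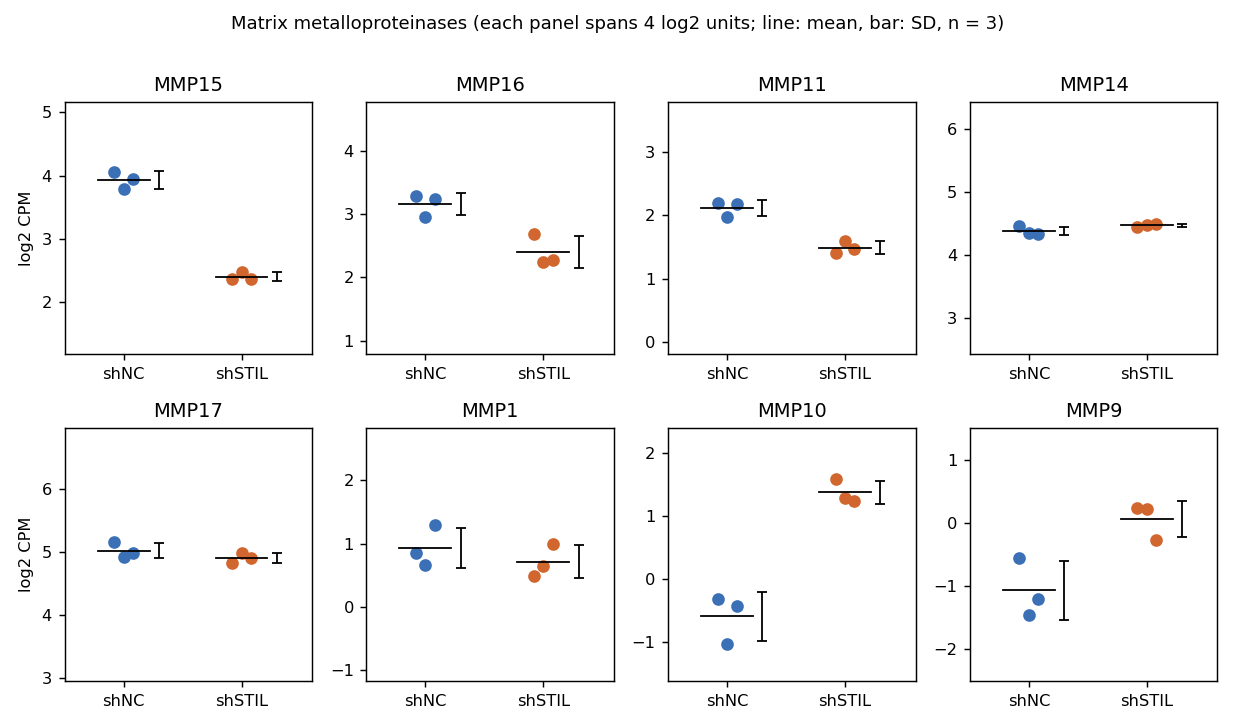
Log2 CPM of 8 MMPs in each library, shNC in blue and shSTIL in orange, with the mean as a line and the SD as a bar beside the points (n = 3). Each panel spans the same number of log2 units, and the shSTIL points lie below the shNC points for MMP15, MMP16 and MMP11, above them for MMP10 and MMP9, and among them for MMP14, MMP17 and MMP1.

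The comparison of chains within a library covered 6 pairs, picked after their values were seen. The others were COL4A5 minus COL4A6 (a shift of 0.82) and LAMB3 minus LAMA3 (0.78). For each of the 6 pairs the groups did not overlap, and the permutation p adjusted over the pairs was 0.1, the smallest that the 20 labellings allow.

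Genes that act on collagens, laminins and MMPs were read from 5 lists, of which 67 of 76 symbols were listed. The examples from these lists, other than FN1, were named after their values were seen. Of the metalloproteinase inhibitors, 3 of 5 were listed and all 3 fell, against 23.6% of all genes. TIMP2 fell by 0.46 (limma adjusted p = 9.6e-08), RECK by 0.33 (limma adjusted p = 0.0069) and TIMP1 by 0.13 (limma adjusted p = 0.00726), for a list median of -0.33. The TIMP2 call was kept in every alternative fit, while those of RECK and TIMP1 were lost in all 6 fits without a library, without the trend, under quantile normalization, median centring and the replicate block, and for RECK with DESeq2, with an adjusted p of up to 0.074 and 0.092. For collagen biosynthesis and crosslinking, 30 of 34 symbols were listed, the other 4 being older symbols of listed genes. In that list 3 genes rose and 8 fell (36.7% called, against 47.1% of all genes), with a median log2 fold change of -0.02 against 0.01 for all genes. The lysyl hydroxylase PLOD1 fell by 0.85 (limma adjusted p = 8.8e-10), the prolyl hydroxylase subunit P4HA1 by 0.76 (limma adjusted p = 1.8e-08) and its partner P4HB by 0.47 (limma adjusted p = 1.6e-08). The prolyl 3-hydroxylase P3H2 rose by 0.44 (limma adjusted p = 2.9e-07) and MIA3, which loads collagen for export, by 0.38 (limma adjusted p = 3.5e-06). The crosslinking oxidase LOXL2 (mean log2 CPM 8.27 and 8.28, limma adjusted p = 0.749) was abundant and did not pass the test.

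Of 12 other basement membrane genes 10 were listed, 1 rose and 5 fell (23.5% and 23.6% of all genes did), with a median of -0.19. FN1, or fibronectin, had log2 CPM values of 6.46, 6.49 and 6.37 in shNC libraries and 5.35, 5.14 and 5.27 in shSTIL libraries, with no overlap, and fell by 1.19 (SE 0.05, limma adjusted p = 8.8e-10), or to 43.8% of the control level. NID1 (-0.21), HSPG2 (-0.20) and AGRN (-0.15), the links of the type IV and laminin networks, also fell (limma adjusted p = 0.0003, 0.00477 and 0.00298), while NTN4 rose by 0.52 (limma adjusted p = 2.2e-08). The calls of HSPG2 and AGRN were lost in all 6 fits without a library, without the trend and under median centring, that of HSPG2 also with DESeq2 and that of AGRN also under quantile normalization, with an adjusted p of up to 0.13 and 0.062. The NID1 call was lost without the trend and without shNC replicate 1 or 2 or shSTIL replicate 3, with an adjusted p of up to 0.013. Those of FN1 and NTN4 were kept in every alternative fit.

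All 15 collagen and laminin receptors were listed, of which 6 rose and 7 fell (86.7% called, against 47.1% of all genes), with a median of -0.16. The collagen-binding DDR2 had 10, 8 and 7 reads in shNC libraries and 48, 35 and 33 in shSTIL libraries, a log2 change of 1.89 (limma adjusted p = 8.8e-06). ITGA10 rose by 0.90 (limma adjusted p = 4.8e-09) and ITGA2 by 0.73 (limma adjusted p = 1.3e-07), both alpha subunits of collagen-binding integrins. The other collagen-binding alpha subunits fell, ITGA1 by 0.52 (limma adjusted p = 0.00743) and ITGA11 by 0.57 (limma adjusted p = 0.00169), as did the collagen receptor DDR1 by 0.30 (limma adjusted p = 9.8e-06). The ITGA1 call was lost without the mean-variance trend, with quantile normalization, with median centring and in all 6 fits without a library, with an adjusted p of up to 0.13. The beta subunit that these integrins share, ITGB1, fell by 0.39 (limma adjusted p = 2.7e-07), and DAG1, a laminin receptor, fell by 0.67 (limma adjusted p = 4.2e-08). The laminin receptors did not move as one. ITGA3 rose by 0.25 (limma adjusted p = 7e-05) and ITGA6 by 0.23 (limma adjusted p = 5.4e-05). BCAM fell by 0.37 (limma adjusted p = 6.5e-06), and ITGA7 and ITGB4 did not pass the test. In the plasminogen activation list, whose product plasmin can activate MMP precursors, 9 of 10 genes were listed, 2 rose and 2 fell (44.4% called, against 47.1% of all genes), with a median of -0.22. The urokinase receptor PLAUR rose by 0.73 (limma adjusted p = 6.6e-09), while S100A10, a plasminogen receptor subunit, fell by 0.99 (limma adjusted p = 8.4e-11) and ANXA2, its partner, by 0.37 (limma adjusted p = 9.8e-07).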

How the data were processed

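RNA-seq of 3 shNC and 3 shSTIL libraries of EJ cells was used. Per the labels and the study's methods, the authors filtered the reads with SOAPnuke, mapped them with Bowtie2 to a transcriptome, estimated gene expression with RSEM and normalized it with edgeR. The labels name hg38, and tool versions are not given in the sources used here. The deposited log2 CPM cover 15953 genes in all 6 libraries. The deposited estimated counts cover 15957 genes in shNC replicate 1 and the 3 shSTIL libraries, and the 4 further genes are at or near 0. Reads of all libraries were recovered from the spacing of the log2 CPM values. In each library 87.1% to 87.4% of the genes, those with 0 reads included, had a whole number of reads (tolerance 0.005). The recovered reads differed from the deposited estimated counts by at most 0.00463 reads. Log2 CPM recomputed from them with edgeR (TMM, prior count of 2) matched the deposited log2 CPM to within 3.36e-05. RSEM splits reads between similar sequences, and 4 members, COL18A1 among them, had fractional counts.

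Log2 CPM of all genes were fitted with limma 3.58.1 (lmFit, then eBayes with its trend option) in R 4.3.3, with Benjamini-Hochberg adjustment over all genes and DEGs at an adjusted p under 0.01. Folds are on the log2 CPM scale, whose prior count understates the change of low genes. CPM sums and RPKM used TMM library sizes and the longest coding transcript of GENCODE 29. Single values were compared by an exact two-sided permutation test. Libraries of the same group were compared, and each pair differed by more than sampling noise (chi-square per degree of freedom 1.66 to 3.39).

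Alternatives were no trend, quantile normalization, median centring, a mean log2 CPM of at least 1, DESeq2 1.42.0 and the quasi-likelihood test of edgeR 4.0.16, both on recovered reads rounded to whole numbers, a prior count of 0.5, the replicate block, an adjusted p under 0.05, an absolute log2 fold change above 1, and each library left out. Whole counts had been assumed when the tests were set, but the count tables are RSEM estimates. Named with every library's value were members that passed the test with an absolute log2 fold change of at least 0.5 and a mean log2 CPM of at least 1, together with fixed chains of type I, IV and XVII collagen, the hemidesmosome and widespread epithelial laminins, the MMPs of the chromosome 11 cluster, MMP2, MMP9 and MMP14. From the other lists, genes with an absolute log2 fold change of at least 1 and that mean were named. Some genes that enter the counts are not reported here by name or in the figures. The members and lists were chosen with earlier results of these data known. Gene positions are from GENCODE 29 (GRCh38), and start sites and promoter sequences from RefSeq (GRCh38.p14).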

Additional observations from a re-analysis of the deposited data

How the results depend on the processing

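The number of members that were DEGs stayed within 1.5 times of 18 higher and 9 lower under no trend, quantile normalization, median centring, a mean log2 CPM of at least 1, edgeR, DESeq2, a prior count of 0.5 and an adjusted p under 0.05. With an absolute log2 fold change above 1 there were 6 higher and 1 lower, by construction. With a library left out, 12 to 16 members were higher and 3 to 6 lower, in fits with fewer libraries. The replicate block gave 18 higher and 8 lower, and it lost the calls of COL17A1, RECK, TIMP1 and UPK1B among the genes named. Across 11319 genes, the deviations of same-numbered libraries from the group mean correlated at -0.121, -0.0553 and -0.107, so replicate numbers were not taken as pairs. Of the 22 named members that were DEGs, 13 kept the call in every fit that tested them and 9 lost it in some, and none of the 22 changed direction. Of the genes named after their values were seen, those refitted under these alternatives kept their direction. Those given by reads or level alone were not refitted, and neither were ITGA3, ITGA6, ITGA7, ITGB4 and BCAM. MMP3, which was not a DEG, turned to -0.126 without shNC replicate 1, and its log2 fold change ran from -0.126 to 0.675 across the fits without a library. The cause was not tested. Median centring moved the median of all genes by 0.043 and quantile normalization by 0.009. Depth limits the 21 members with fewer than 5 reads in every library, for which small changes were not detectable.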
